A study of Mus musculus with 12 samples.

Results

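B and T lymphocyte genes were examined in RNA from isolated mouse pancreatic islets. The 38 genes were taken by name: 16 belong to the B lineage, 15 to the T lineage or to cytotoxic cells, and 7 are used by both lineages. They were set apart to describe how lymphocyte RNA varied between islet preparations, not for any difference between the groups. The array carried 73 probes for them among 45281 probes in all.

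The islets were those of 12 C57BL/6 males aged 8 weeks, 6 SRI-tg10 mice and 6 littermate controls, with 1 array for each mouse. In SRI-tg10, 10 transgene copies encode sorcin, a calcium-binding protein, together with luciferase. A tetracycline-inducible promoter drives the transgene, and the transactivator that doxycycline switches on is under the rat insulin promoter. The labels do not give the transgenes of the littermate controls. Both groups ate a diet with 60% fat from 4 weeks of age and, per the series' design text, drank doxycycline at 500 mg/L for 4 weeks, while the treatment label names only SRI-tg10 for these. The tissue label reads islets and the source name reads beta cells. Islets were freed by collagenase and parted from exocrine tissue on a density gradient, with no sorting of cells recorded. Arrays are named here by group and number, and each sample title also carries a letter of unstated meaning, A for replicates 1 to 3 and B for replicates 4 to 6 of each group.

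Between 16271 and 20094 probes were detected per array, which is 35.9% to 44.4% of all probes. Control 5 had the fewest, and its mean correlation with the other arrays, 0.934, was the lowest. Sri, the gene of the transgene, was at 9.60 to 10.09 (log2 level) in the controls and at 14.81 to 14.96 in 5 SRI-tg10 arrays. SRI-tg10 4 stood apart at 12.72, and results below are given with and without it where it matters. The beta cell genes Ins1 and Ins2 had mean log2 levels of 14.92 and 14.79, and the acinar gene Cela3b, an elastase of the exocrine pancreas, was at 15.02.

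B cells carry an antigen receptor made of membrane immunoglobulin and the signalling pair encoded by Cd79a and Cd79b, while T cells carry a receptor that signals through the CD3 chains and the kinase Lck. Lymphocytes collect in lymph nodes, where stromal cells make the chemokines that CCR7 and CXCR5 recognise. Islets of mice without autoimmunity hold few of them, and islets isolated through the bile duct can carry along blood and lymphoid tissue. In RNA of a mixed tissue, fewer cells of a type and less RNA per cell cannot be told apart.

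Several B lineage genes are controlled through the octamer, ATTTGCAT or ATGCAAAT on the opposite strand, which is bound by the Oct factors that Pou2af1, itself a member here, assists. The 250 bases before the transcription start, from RefSeq on GRCm38.p6, were found for 24 of the 38 genes. Of 11 B lineage genes with such a window, 3 held the octamer, against 0 of 9 T lineage and cytotoxic genes, 0 of 4 shared genes and 1.81% of 27025 gene symbols. The 3 windows are printed because they hold the octamer, which no T gene window here held, with Cd79a, which has no match, for comparison. So few windows do not show that the octamer sets B genes apart from T genes. Capitals mark the octamer, whose first base lies 45 bases before the start in Vpreb3, 130 in Blnk and 48 in Cnr2. Vpreb3 is at chr10:75948050-75948299 on the plus strand, Blnk at chr19:40994222-40994471 on the minus strand, Cnr2 at chr4:135894939-135895188 on the plus strand and Cd79a at chr7:24897247-24897496 on the plus strand. A second start of Cnr2 had no match, and a match is a description of the letters, not a sign of binding.
Vpreb3: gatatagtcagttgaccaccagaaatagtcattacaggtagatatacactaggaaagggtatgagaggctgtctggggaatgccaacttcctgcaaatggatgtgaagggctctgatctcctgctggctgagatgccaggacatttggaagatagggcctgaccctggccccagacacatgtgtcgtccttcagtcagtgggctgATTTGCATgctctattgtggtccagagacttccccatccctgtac
Blnk: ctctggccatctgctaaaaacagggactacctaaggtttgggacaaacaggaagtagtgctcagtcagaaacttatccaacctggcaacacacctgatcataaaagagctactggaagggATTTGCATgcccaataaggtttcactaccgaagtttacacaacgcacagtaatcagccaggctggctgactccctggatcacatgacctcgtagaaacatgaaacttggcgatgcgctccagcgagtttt
Cnr2: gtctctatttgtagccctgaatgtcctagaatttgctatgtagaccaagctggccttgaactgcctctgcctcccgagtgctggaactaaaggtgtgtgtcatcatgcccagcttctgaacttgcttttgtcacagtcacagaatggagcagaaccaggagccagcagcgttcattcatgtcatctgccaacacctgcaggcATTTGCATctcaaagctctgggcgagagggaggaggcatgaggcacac
Cd79a: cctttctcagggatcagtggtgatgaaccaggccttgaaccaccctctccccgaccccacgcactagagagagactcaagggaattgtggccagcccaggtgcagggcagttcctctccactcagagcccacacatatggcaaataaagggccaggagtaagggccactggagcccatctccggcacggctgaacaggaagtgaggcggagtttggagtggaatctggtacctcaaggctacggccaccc

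Most of the lymphocyte genes were measurable, and they varied far more between arrays than other genes did. A probe was kept when its detection p, the deposited comparison with negative control beads, was under 0.05 on at least 6 of 12 arrays. By this, 31 of the 38 genes were kept: 15 of 16 B lineage genes, 10 of 15 T lineage and cytotoxic genes and 6 of 7 shared genes. Each kept gene is given by its brightest kept probe. Of those not kept, Ms4a1, which encodes the B cell antigen CD20, Cd28, a costimulatory receptor, and Cd5, a modulator of antigen receptor signals, were detected on at most 3 arrays. Cd4, the coreceptor of helper T cells, was detected on at most 2, Cd8a, a coreceptor chain of cytotoxic T cells, and Ikzf3, a lymphoid transcription factor, on 1 each. Gzma, a granzyme of cytotoxic cells, was detected on 0. The range of a member over the 12 arrays had a median of 3.84 on the log2 scale, against 1.08 over all 18315 kept probes. The SD within groups had a median of 1.42 against 0.319. It was above the 95th percentile of all kept probes, 0.687, for 30 of the 31 members and above the 99th, 1.24, for 20. Without background correction the median range of the members was smaller, 2.10. The range over all kept probes was not computed in that setting, so the contrast is not known there. The members were chosen with earlier results of these data known, so the comparison of members with all kept probes is a description and not a test. Each member also enters by 1 probe, its brightest, while the comparison takes in every kept probe.

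**Figure D1:**
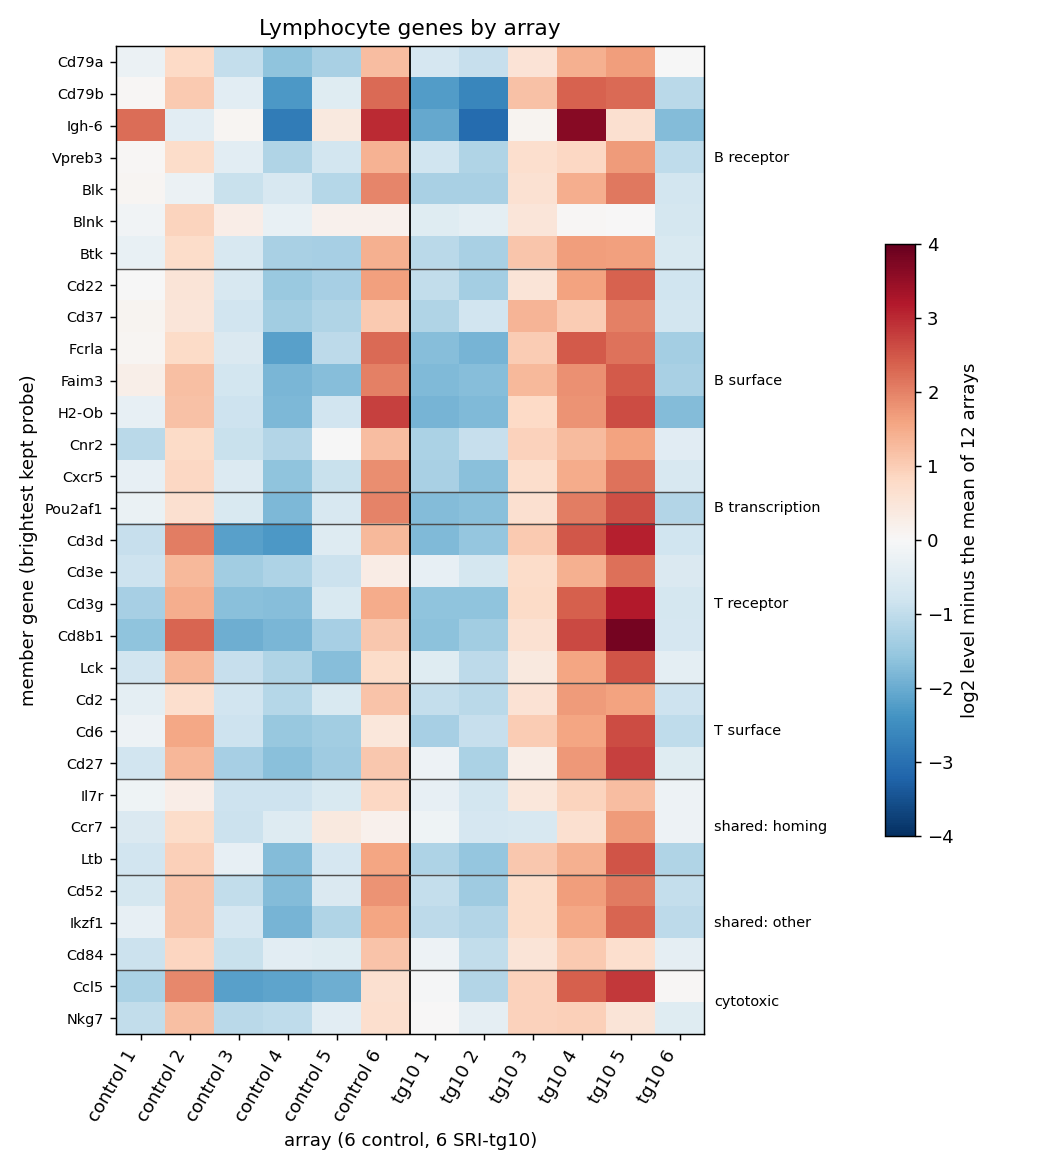
Log2 level of the 31 kept lymphocyte genes (rows, grouped by role) on the 12 arrays (columns), each minus its mean over the arrays. Control 2, control 6 and SRI-tg10 3, 4 and 5 are red for nearly all genes, and SRI-tg10 1, 2 and 6 and control 3, 4 and 5 are mostly blue.

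The same arrays were high for nearly every member, and they belonged to both groups. For 27 of the 31 genes the 5 highest arrays were control 2, control 6 and SRI-tg10 3, 4 and 5. SRI-tg10 5 was the highest array for 22 genes and SRI-tg10 4 for 5, while control 2 and control 6 were each the highest for 2. Control 4 was the lowest for 16 genes. The exceptions to the shared set of 5 were Igh-6, Blk, Blnk and Ccr7.

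Detection calls gave a like picture. The lymphocyte genes detected numbered 25, 32, 19, 12, 15 and 34 of 38 on control 1 to 6. On SRI-tg10 1 to 6 they numbered 15, 13, 30, 35, 36 and 21. All 16 B lineage genes were detected on control 6, SRI-tg10 4 and SRI-tg10 5, and 4 of them on SRI-tg10 2. The groups overlapped over nearly the whole range.

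**Figure D2:**
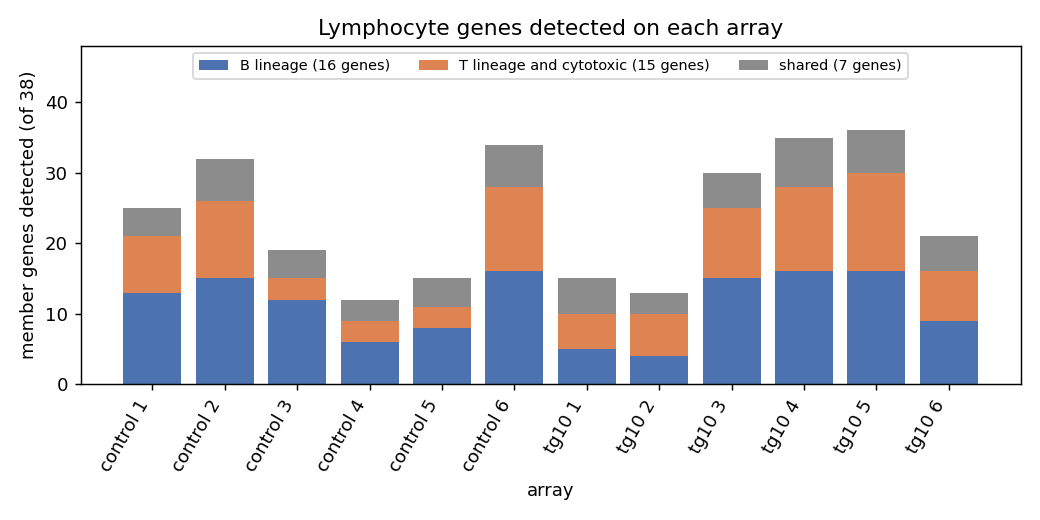
Number of the 38 lymphocyte genes detected on each array, stacked by lineage (B lineage, T lineage and cytotoxic, shared). Counts run from 12 on control 4 to 36 on SRI-tg10 5, with 34 on control 6 and 32 on control 2.

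Among the B cell receptor genes, Igh-6, the constant region of the IgM heavy chain, had the widest range of all members. Its log2 level was lowest at 8.48, median 11.51 and highest 14.27 in control, and 8.21, 10.45 and 14.90 in SRI-tg10, a span of at least 103-fold over the 12 arrays, since its highest level lies near the top of the intensity scale. Its order of arrays was its own: the highest were SRI-tg10 4 at 14.90, control 6 at 14.27 and control 1 at 13.51, an array on which other B genes were near their average. Over the arrays its correlation with the mean of the other B members was 0.764, and that of the other B members, Blnk aside, was 0.906 to 0.995. Cd79b, the beta chain of the receptor's signalling pair, had lowest, median and highest log2 levels of 6.49, 8.59 and 11.05 in control and 6.16, 8.83 and 11.13 in SRI-tg10. Its 3 highest arrays, SRI-tg10 4, control 6 and SRI-tg10 5, were at 11.13, 11.05 and 11.05 and came from both groups. Blk, a kinase of the Src family used by B cells, ran from 4.90 through a median of 5.59 to 7.97 in control and from 4.73 through 5.96 to 8.14 in SRI-tg10. It was detected on 4 control and 3 SRI-tg10 arrays, and values of undetected probes lie near background, since the lowest level of a detected probe was 5.16 to 5.67 depending on the array.

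Cd79a, the alpha chain of the signalling pair, was detected on all 12 arrays, at 6.06 to 8.89 in control and 6.74 to 9.34 in SRI-tg10. Vpreb3, a protein of immunoglobulin assembly in B cells, Btk, the kinase downstream of the receptor, and Blnk, an adaptor of receptor signalling, were detected on 7, 8 and 6 arrays. Blnk differed from the rest: its range of 1.61 was the smallest of the members, and control 2 was its highest array at 6.25.

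The B cell surface genes followed the common order closely. Fcrla, an Fc receptor-like protein found inside B cells, had lowest, median and highest log2 levels of 4.78, 6.72 and 9.23 in control and 5.10, 6.78 and 9.42 in SRI-tg10. With a correlation of 0.995 it was the member closest to the mean of the other B genes. H2-Ob, a chain of the class II modulator H2-O, stood at 4.68, 5.91 and 9.20 in control and 4.59, 5.99 and 9.07 in SRI-tg10, with control 6 as its highest array. Faim3, the receptor for IgM now named Fcmr, was detected on every array, at 6.91, 8.51 and 10.76 in control and 7.00, 8.75 and 11.21 in SRI-tg10. For each of the 3, the group medians lay closer together than the lowest and highest arrays of either group. Cd22, an inhibitory coreceptor, Cd37, a tetraspanin, Cnr2, the cannabinoid receptor of immune cells, and Cxcr5, the receptor for the follicle chemokine CXCL13, had ranges between 2.86 and 3.84.

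Pou2af1, the octamer coactivator of B cells, had lowest, median and highest levels of 4.63, 5.99 and 8.40 in control and 4.69, 6.16 and 9.00 in SRI-tg10. It was detected on 5 control and 3 SRI-tg10 arrays, and SRI-tg10 5, SRI-tg10 4 and control 6 were again the highest.

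**Figure D3:**
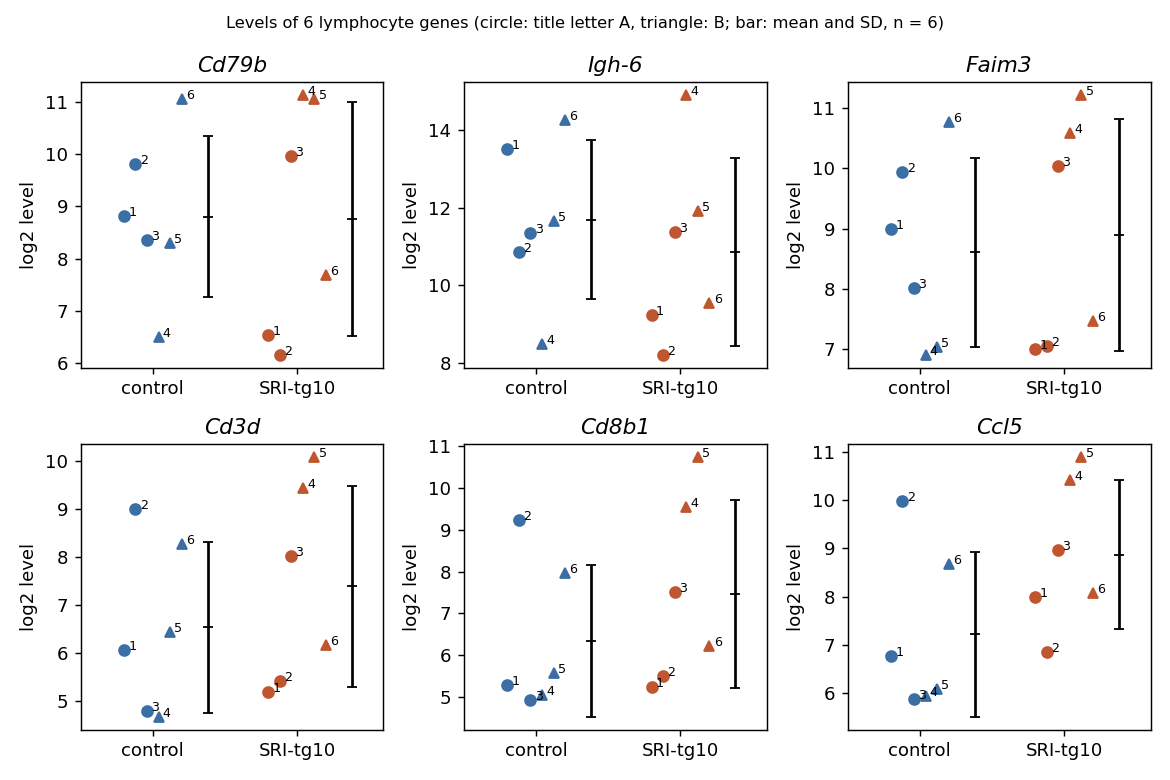
Log2 level of 6 lymphocyte genes on each array, by group, with replicate numbers beside the points, circles for title letter A and triangles for B, and the mean with SD (n = 6). The groups overlap for each gene; for Cd79b the means are 8.81 in control and 8.75 in SRI-tg10, and for Ccl5 7.22 and 8.87.

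The T cell receptor genes moved over the arrays by as much. Cd8b1, the beta chain of the CD8 coreceptor, had lowest, median and highest log2 levels of 4.95, 5.43 and 9.23 in control and 5.25, 6.88 and 10.72 in SRI-tg10, a span of at least 43.5-fold. Cd3d, a signalling chain of the receptor complex, had 4.68, 6.25 and 9.01 in control and 5.20, 7.11 and 10.08 in SRI-tg10. Cd3g, another chain of that complex, had 4.82, 5.55 and 8.01 in control and 4.91, 6.57 and 9.70 in SRI-tg10. For the 3 genes SRI-tg10 5 was the highest array and SRI-tg10 4 the next. Control 2 was above control 6 for Cd8b1 and Cd3d and about level with it for Cd3g, at 7.97 against 8.01. Cd3e and Lck shared the order at its upper end, with ranges of 3.59 and 4.23.

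Among the T surface genes, Cd27, a costimulatory receptor of the TNF receptor family, had lowest, median and highest levels of 4.47, 5.07 and 7.45 in control and 4.85, 6.15 and 8.87 in SRI-tg10. The 2 kept probes of Cd27 correlated at only 0.539 over the arrays, so its level is less certain than that of other members. Cd6, an adhesion receptor of T cells, had 4.46, 5.46 and 7.53 in control and 4.65, 6.04 and 8.59 in SRI-tg10. Cd2, an adhesion molecule of T and NK cells, had 4.73, 5.38 and 7.03 in control and 4.81, 5.76 and 7.58 in SRI-tg10. Cd2 was the T member whose pattern lay closer to the B mean (0.978) than to the T mean (0.949).

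The cytotoxic genes were led by Ccl5, a chemokine released by activated T and NK cells. Its log2 level was lowest at 5.88, median 6.43 and highest 9.98 in control, and 6.86, 8.52 and 10.89 in SRI-tg10. It was detected on all 12 arrays, and control 2 lay above 4 of the SRI-tg10 arrays. Nkg7, a protein of cytotoxic granules, ran from 4.54 to 6.81 in control and from 5.15 to 6.57 in SRI-tg10, detected on 2 and 4 arrays.

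Of the genes that both lineages use, Ltb, the cytokine lymphotoxin beta, had lowest, median and highest levels of 4.65, 5.88 and 7.95 in control and 4.83, 6.33 and 8.89 in SRI-tg10. Ccr7, the lymph node homing receptor, was detected on 7 arrays, with levels of 4.78, 5.46 and 6.37 in control and 4.97, 5.44 and 7.35 in SRI-tg10. Il7r, the interleukin 7 receptor chain that T cells need to survive, had 5.40, 5.86 and 7.08 in control and 5.52, 6.37 and 7.48 in SRI-tg10. Ccr7 and Il7r were among the members with the narrowest ranges, 2.58 and 2.09. Ikzf1, the lymphoid transcription factor Ikaros, had 5.14, 6.49 and 8.58 in control and 5.83, 6.84 and 9.33 in SRI-tg10. Cd52, a surface glycoprotein of lymphocytes that other leukocytes also carry, had 8.90, 10.00 and 12.44 in control and 9.20, 10.52 and 12.70 in SRI-tg10. Cd84, a receptor of the SLAM family, had 5.17, 5.61 and 7.22 in control and 5.07, 6.23 and 7.11 in SRI-tg10. For these 6 genes the highest control array lay above the median of SRI-tg10.

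B and T genes did not move in a fixed ratio. The mean of the 15 kept B genes, each centred on its mean over the arrays, was 0.01, 0.66, -0.57, -1.56, -0.80 and 1.75 on control 1 to 6. The same mean of the 10 T lineage and cytotoxic genes was -0.91, 1.51, -1.43, -1.58, -1.08 and 0.89. On SRI-tg10 1 to 6 the B mean was -1.36, -1.50, 0.80, 1.66, 1.87 and -0.94 and the T mean -0.83, -1.11, 0.73, 1.89, 2.52 and -0.59. The B mean minus the T mean was 0.92, -0.85, 0.86, 0.02, 0.28 and 0.86 on control 1 to 6 and -0.53, -0.39, 0.07, -0.23, -0.65 and -0.35 on SRI-tg10 1 to 6. It was above 0 on 5 of 6 control arrays and below 0 on 5 of 6 SRI-tg10 arrays, and control 2, at -0.85, was the lowest of all 12. This split was not tested, as the members were chosen with results known. It rests in part on values near background: only 3 of 15 T genes were detected on each of control 3, 4 and 5. Of 16 B genes, 5 and 4 were detected on SRI-tg10 1 and 2. On those arrays the difference is not a measured ratio. Control 2 and control 6, with 15 and 16 B genes and 11 and 12 T genes detected, lay at -0.85 and 0.86. The B mean includes Igh-6, whose order of arrays was its own. Of the 15 B members, 13 correlated more closely with the mean of the other B members than with the T mean, the exceptions being Cd79a and Cnr2. Of the 10 T and cytotoxic members, 9 correlated more closely with the T mean. These correlations describe 12 arrays and carry no test.

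**Figure D4:**
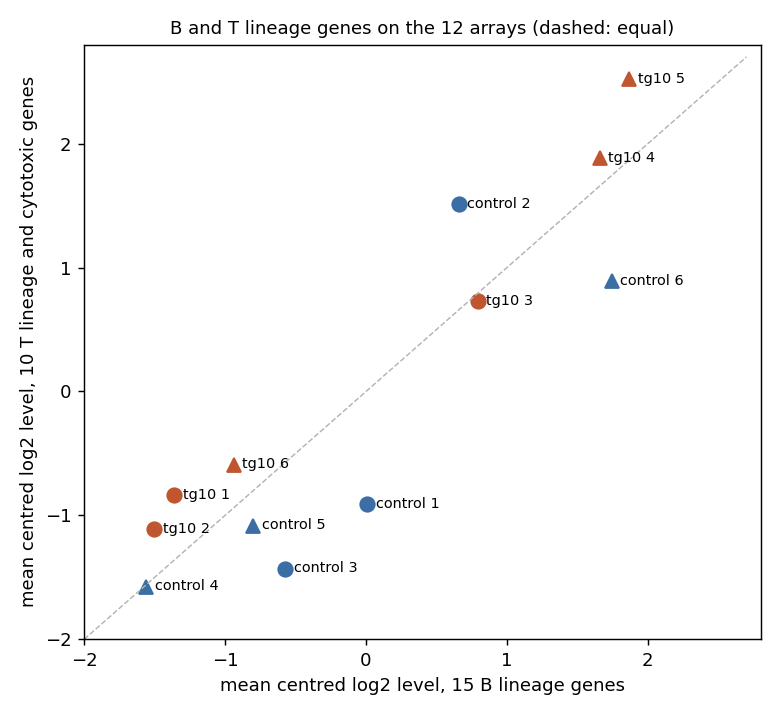
Mean centred log2 level of 15 B lineage genes (x axis) and of 10 T lineage and cytotoxic genes (y axis) on each array, circles for title letter A and triangles for B, with the line of equality dashed. Of the control arrays 5 of 6 lie on the B side of the line and of the SRI-tg10 arrays 5 of 6 on the T side, with control 2 and SRI-tg10 5 farthest to the T side, and the highest arrays of both groups share the upper right. On the low arrays many of these genes were near background, so their distance from the line is not a measured ratio.

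Pairs of single genes were tested across the 12 arrays, 12 pairs in all, with permutation p-values (100000 resamples, two-sided) adjusted by Benjamini-Hochberg. The genes were chosen with earlier results of these data known, so these p-values are not independent evidence of shared variation. Cd79a varied with Cd3g at Pearson r = 0.927 and Spearman rho = 0.888 (permutation p = 1e-05, the smallest these permutations can give, adjusted p = 6e-05, and for rho p = 0.00034). Without SRI-tg10 5 and SRI-tg10 4, the arrays farthest from the median of Cd79a, r was 0.876. Within control it was 0.883, within SRI-tg10 0.991, within letter A 0.964 and within letter B 0.939. For the B pair Cd79a and Cd79b, r was 0.885 (rho = 0.839, adjusted permutation p = 0.00054), 0.820 without the 2 farthest arrays, 0.821 within letter A and 0.923 within letter B. For the T pair Cd3g and Cd3e, r was 0.944 (rho = 0.853, adjusted permutation p = 0.00015), 0.880 without the 2 farthest arrays, 0.943 within letter A and 0.979 within letter B. Cd79a also varied with the T genes Cd3e (r = 0.906, rho = 0.923) and Lck (r = 0.948, rho = 0.972). Cd3g varied with Lck (r = 0.932, rho = 0.811) and Nkg7 (r = 0.830, rho = 0.776), and the adjusted permutation p of these 4 pairs was at most 0.00220 for r and 0.00643 for rho. Within the letters, r of these 4 pairs was between 0.891 and 0.963, and without the 2 farthest arrays between 0.839 and 0.926. Ms4a1 had no kept probe and entered no pair. Unlike 13 of the 15 B members, Cd79a correlated less with the mean of the other B members (0.922) than with the T mean (0.953). For Cd79b these values were 0.981 and 0.860, so the pairs of Cd79a with T genes do not stand for B genes in general.

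Cd79a also varied with Lyz2, lysozyme of myeloid cells, at r = 0.832 (rho = 0.811, permutation p = 0.00088, adjusted p = 0.00151). Without the 2 farthest arrays r was 0.799, within letter A 0.675 and within letter B 0.887. The other pairs missed the threshold. With Hbb-b1, the beta globin of red blood cells, r was -0.374 (rho = -0.354, adjusted permutation p = 0.302). With Ins2 it was 0.291 (rho = 0.214, adjusted permutation p = 0.422), with Cela3b 0.256 (rho = 0.190, adjusted permutation p = 0.422) and with the number of detected probes 0.274 (rho = -0.014, adjusted permutation p = 0.422). Within letters A and B, r was -0.983 and -0.265 with Hbb-b1, 0.007 and 0.251 with Ins2, 0.30 and 0.22 with Cela3b, and -0.733 and 0.545 with the number of detected probes, so the last had opposite signs in the letters. The values with Ins2 and Cela3b have no settled sign: with median scaling in place of quantile normalization they were -0.454 and -0.385. Within control and SRI-tg10, r was -0.029 and 0.842 with Ins2, 0.017 and 0.351 with Cela3b, -0.404 and -0.437 with Hbb-b1, and 0.503 and -0.125 with the number of detected probes. Ins2 and Cela3b sit near the top of the intensity scale, where differences between arrays are compressed.

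The comparison of SRI-tg10 with control asks whether sorcin expressed in beta cells goes with a change in islet RNA. For 30 of the 31 lymphocyte genes the group means differed by less than the SD within groups, and for Ccl5 the difference of 1.65 was about as large as that SD of 1.63. With limma, and p-values adjusted by Benjamini-Hochberg across the whole set of kept probes, 0 of 31 members passed an adjusted p of 0.05, where 4 probes or 0.0218% of all kept probes did, and 0 had an unadjusted p under 0.05, where 4.26% of all did. The groups overlapped for all 31 members, and 0.169% of all kept probes had groups that did not overlap. The mean was higher in SRI-tg10 for 27 members, against 49.3% of all kept probes, with a median log2 difference of 0.38 against -0.0036. These members share their arrays, so their common direction is that of a few arrays and not of 27 separate observations. By lineage, the mean was higher in SRI-tg10 for 11 of 15 B genes (median difference 0.25), 10 of 10 T and cytotoxic genes (0.86) and 6 of 6 shared genes (0.35).

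Ccl5 had the smallest p of the members, with a log2 difference of 1.65 ± 0.81 (SE, n = 6 and 6), a limma p of 0.0627 and an adjusted p of 0.922. Its level was above the control mean in 5 of 6 SRI-tg10 arrays, and the 95% interval ran from -0.10 to 3.40. Cd8b1 differed by 1.12 ± 1.01 and Cd3d by 0.85 ± 0.97, with 3 of 6 SRI-tg10 arrays above the control mean for each. Igh-6 differed by -0.83 ± 1.11, with an interval from -3.22 to 1.57, and Cd79b by -0.05 ± 0.96. The second kept probe of Cd79b had the opposite sign, at 0.39. Blnk and H2-Ob were the other genes with a lower mean in SRI-tg10, at -0.36 and -0.06. Intervals were 0.97 to 4.79 wide on the log2 scale, and the median SE was 0.71, so a 2-fold change, which is 1 on that scale, was within the error for most members.

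**Figure D5:**
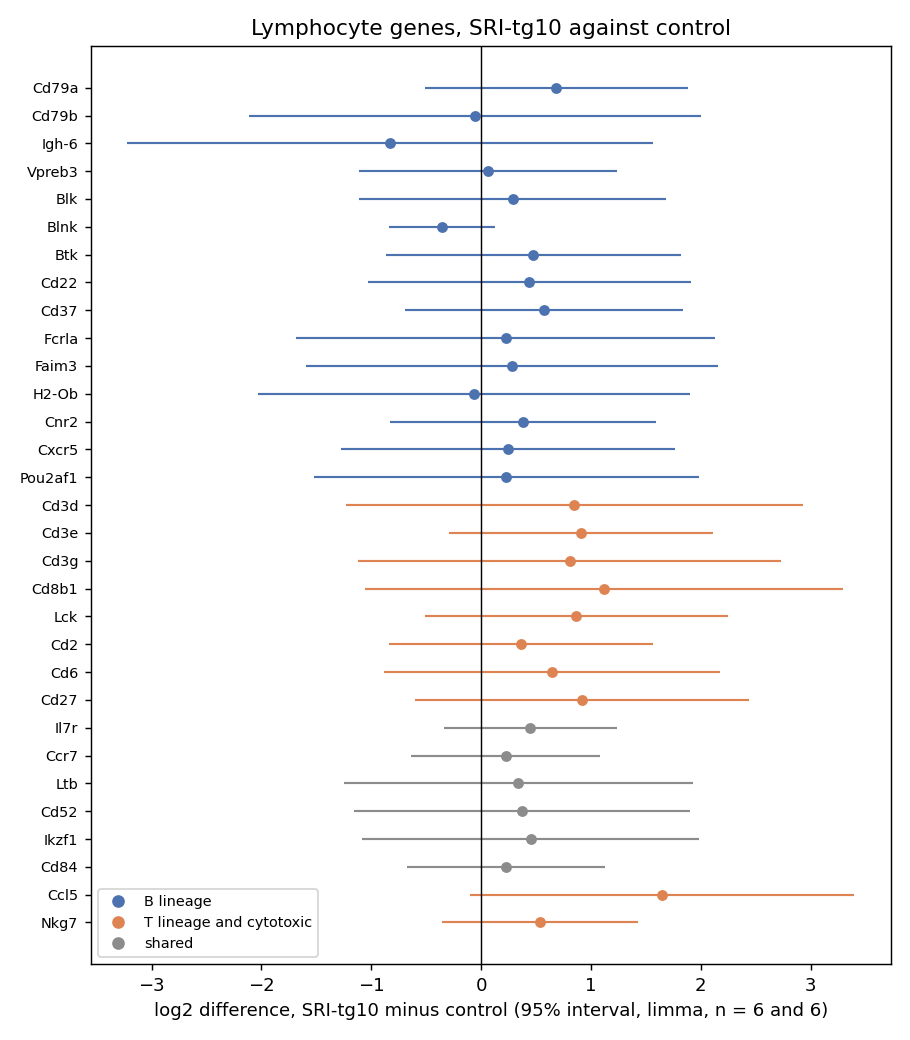
Log2 difference of the 31 kept lymphocyte genes, SRI-tg10 minus control, with the 95% interval from limma (n = 6 and 6), coloured by lineage. Each interval includes 0; the differences run from -0.83 for Igh-6 to 1.65 for Ccl5.

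Leaving out single arrays moved these values by over 1.5 times. The median over the members was 0.07 without SRI-tg10 5 and 0.71 without control 6. Without SRI-tg10 4, whose Sri level was lower, it was 0.16, with 22 of 31 means higher in SRI-tg10. Without SRI-tg10 5 the mean was higher for 18 genes, and the median of the B genes was -0.18. For the T genes the median was 0.45 without SRI-tg10 5 and 1.24 without control 2. No member passed the threshold without any of the 12 arrays.

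The direction also differed between the title letters. Within letter A, 5 of 31 members had the higher mean in SRI-tg10, with a median log2 difference of -0.36, and within letter B 30 of 31, with a median of 1.30. The median of the T genes was -0.27 within letter A and 1.94 within letter B, and that of the B genes -0.58 and 1.28. In letter A the high arrays were control 2 and SRI-tg10 3, and in letter B control 6 and SRI-tg10 4 and 5. The interaction of group and letter was positive for all 31 members, yet 0 passed the threshold in limma and 0 had an unadjusted p under 0.05, where 0% and 2.33% of all kept probes did. The smallest interaction p was 0.0897, for Lck. Letter B had the higher mean than letter A for 30 of 31 members, median 0.64 against -0.03 over all kept probes. In that contrast 0 members passed, against 0.0928% of all kept probes, and 0 had an unadjusted p under 0.05, against 16.8%.

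The authors' deposited table of their own comparison lists the probes of all 31 members, and 0 had an adjusted p under 0.05 there. Of the log2 folds in the authors' deposited table, 13 were positive and 18 negative, with a median of -0.16. For the B genes 13 of 15 were negative in the authors' deposited table, with a median of -0.36, and for the T genes 1 of 10, with a median of 0.22. The authors' deposited table gives -1.95 for Igh-6 and 0.80 for Ccl5, where the fit here without SRI-tg10 4 gives -1.63 and 1.34. Using the deposited intensities, a weighted sum of arrays was fitted to the folds of the authors' deposited table. In it SRI-tg10 4 had a weight of -0.001 and control 5 of -0.038, against sizes of 0.08 to 0.215 for the other arrays. How closely this sum follows the folds is not given, so the weights do not settle which arrays the authors used.

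Lists of markers of other cells, 13 in all, were described in the same way, and no gene of any list passed the threshold in limma. Of 31 further B genes 19 were kept, 16 with the higher mean in SRI-tg10 (median difference 0.24). Their median correlation with the mean of the B members was 0.92, and 16 of 19 had a correlation over 0.8, against 2.93% of 12616 other kept genes. The one with the highest mean was Igk-C, the constant region of the kappa light chain, with a log2 level of 9.57 on SRI-tg10 2 and 15.17 on SRI-tg10 4. Its 3 highest arrays, SRI-tg10 4, control 6 and control 1, were those of Igh-6. Of 33 further T genes 11 were kept, 10 with the higher mean in SRI-tg10 (median 0.25), 7 of them correlated over 0.8 with the T mean, against 2.85% of other kept genes. Among 14 NK and cytotoxic genes 4 were kept, 3 with the higher mean in SRI-tg10 (median 0.53), and Ctsw, a cathepsin of cytotoxic lymphocytes, differed by 0.95 ± 0.56. Prf1, the kept gene of that list with the highest mean level, differed by -0.26 ± 0.22. Its correlations with the B and T means were 0.10 and -0.02. The medians of that list were 0.72 and 0.87, with 1 and 3 of 4 genes over 0.8.

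The lists of plasma cell genes and of germinal centre and cycling genes were short. Of 10 plasma cell genes 4 were kept, and all 4 had the lower mean in SRI-tg10, with a median of -0.17. Their median correlations with the B and T means were -0.13 and -0.35. Only Mzb1 was over 0.8 with the B mean, at 0.95. Xbp1, Fkbp11 and Derl3 of that list act in protein secretion and are used by endocrine and exocrine cells too, and Derl3 had an unadjusted p of 0.0404 and an adjusted p of 0.922 in limma, at -0.59 ± 0.26. Mzb1, which helps immunoglobulin assembly in B and plasma cells, was at 8.12, 8.09, 7.48, 5.66, 7.25 and 10.57 on control 1 to 6 and at 5.53, 5.56, 8.24, 11.41, 9.76 and 6.54 on SRI-tg10 1 to 6. Of 7 germinal centre and cycling genes 3 were kept, 2 with the higher mean in SRI-tg10 (median 0.25). Median correlations of these 3 with the B and T means were 0.83 and 0.87, with 2 of 3 over 0.8 for each.

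Some genes on the list of lymph node stroma were high on the same arrays and others were not. Of 18 listed genes 11 were kept, 8 with the higher mean in SRI-tg10 (median 0.05). The mean centred level of the list was -0.74 to 1.10 in control and -0.995 to 1.47 in SRI-tg10, highest on SRI-tg10 4. Their median correlation was 0.71 with the B mean, with 1 of 11 over 0.8, and 0.61 with the T mean, with 3 of 11 over 0.8. Enpp2 and Ltbr of this list had correlations of 0.06 and -0.30 with the B mean, and Ltbr, like Cxcl13 below, was chosen after its values were seen. Ccl21b, a chemokine of lymphatic vessels and T cell zones that CCR7 recognises, was at 5.24, 8.69, 7.58, 8.24, 6.44 and 9.75 on control 1 to 6 and at 8.27, 7.07, 11.06, 10.85, 11.75 and 7.74 on SRI-tg10 1 to 6. Its difference of 1.80 ± 0.90 had a limma adjusted p of 0.922, and its probe may share signal with Ccl21a and Ccl21c, which are nearly identical genes. Cxcl13, the follicle chemokine that CXCR5 recognises, was at 9.42, 5.17, 9.03, 4.89, 9.06 and 11.56 on control 1 to 6 and at 5.38, 5.01, 6.73, 11.69, 8.49 and 5.24 on SRI-tg10 1 to 6. Control 2, high for T genes, was thus near background for Cxcl13, and control 1, high for Igh-6, was not. Of 8 lymphatic endothelial genes 6 were kept, 5 with the higher mean in SRI-tg10 (median 0.13). The part of lymphoid tissue in the values of the members was not tested.

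Macrophage and dendritic cell genes varied with the members to differing degrees, at a smaller scale. Of 28 genes 20 were kept, and all 20 had the higher mean in SRI-tg10, with a median of 0.26. Their median correlation was 0.77 with the B mean, with 7 of 20 over 0.8, and 0.79 with the T mean, with 10 of 20 over 0.8. Their mean centred level ran from -0.72 to 0.95 in control and from -0.58 to 0.80 in SRI-tg10. Control 6 was their highest array. H2-Ab1 and Cd74, class II antigen presentation genes on that list, are also expressed by B cells, and their correlations with the B mean were 0.89 and 0.82. For Lyz1 of that list the correlation with the B mean was 0.85, and for Cx3cr1 0.51. Of 11 neutrophil and mast cell genes 2 were kept, 1 higher in mean in SRI-tg10 (median 0.09).

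The lists of blood, exocrine, endothelial and beta cells had median correlations with the B mean between -0.34 and 0.41. Of 12 red cell and platelet genes 7 were kept, all with the higher mean in SRI-tg10 (median 0.26), and their median correlation with the B mean was -0.34. The platelet gene Pf4 went the other way, with correlations of 0.60 with the B mean and 0.77 with the T mean. It differed by 0.86 ± 0.40 between the groups, with a limma adjusted p of 0.922. On the 5 arrays that were high for lymphocyte genes the mean centred level of this list was -1.37 (control 2), 0.09 (control 6), -0.80 (SRI-tg10 3), 1.07 (SRI-tg10 4) and -1.29 (SRI-tg10 5), so they lay on both sides of its average. All 17 acinar genes were kept, 10 with the higher mean in SRI-tg10 (median 0.04), with a median correlation of -0.01. Endothelial genes were kept for 12 of 14, 5 with the higher mean (median -0.09), with a median correlation of 0.41. All 14 beta cell genes were kept, 8 with the higher mean (median 0.02), with a median correlation of -0.30.

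The genes outside the members whose pattern was most like the B mean over the 12 arrays were H2-Oa, with a Pearson r of 0.995, Hvcn1 at 0.994 and Gpr18 at 0.992. They were followed by Tbc1d10c, Tnfrsf13c, Tnfrsf13b, Rac2, LOC386520, Ccr6 and LOC381276, down to 0.981. H2-Oa, Hvcn1, Tnfrsf13c and Tnfrsf13b are also on the list of further B genes. H2-Oa is the partner chain of H2-Ob, and Tnfrsf13c encodes the receptor for the B cell survival factor BAFF. Most like the T mean were Epsti1 at 0.988, Tcrb-V13 at 0.986, Itgb7 at 0.984 and Tcrb-V8.2 at 0.977. Then came Selplg, Lsp1, Glipr2, Sh2d2a, Fxyd5 and Rassf5, down to 0.962. Tcrb-V13 and Tcrb-V8.2 are variable segments of the T cell receptor beta chain, with ranges of 5.86 and 5.58 over the arrays, and Itgb7 encodes an integrin chain of gut-homing lymphocytes. None of the 20 genes passed the threshold in limma.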

How the data were processed

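RNA from 12 islet preparations was hybridised to Illumina bead arrays, with GenomeStudio as the only tool that the submitters' processing notes list, without a version. Per the file headers, the authors deposited for each probe its mean bead intensity, not normalized between arrays, and a detection p-value. Medians per array ran from 127 to 167. The authors' deposited comparison table gives log2 fold changes, t statistics (a score) and p-values. Its direction was taken from the intensities, and its model is not stated.

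Intensities were background-corrected, quantile-normalized and logged with neqc of limma 3.58.1 (R 4.3.3), offset 16, and 18315 probes were kept. Contrasts were fitted with lmFit and eBayes over all kept probes, two-sided, with Benjamini-Hochberg adjustment and a threshold of 0.05. The letter contrast had group as covariate. The number of arrays limits the precision. The scripts were tested on simulated data. The mice are numbered separately in the labels, so each array was counted as 1 animal. 0 pairs of arrays had identical intensities.

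The normalized value table was not used, since 10 of its 12 columns matched the intensities of another array best. Up to 20 kept members, at most 3 per role by range over the arrays, are given with full values, with up to 3 highest and 2 smallest-p genes per marker list. A list gene outside that choice (Cxcl13, Ltbr) was chosen after its values were seen. The members, roles and lists were chosen with earlier results of these data known. Alternatives covered normalization, filter, title letter, array weights, eBayes settings, probe choice and each array left out.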

Additional observations from a re-analysis of the deposited data

How the results depend on the processing

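In the 24 alternatives run, 12 of them leaving out 1 array, 0 members passed the threshold between the groups, and 0 passed between the title letters in the 22 that hold both letters. At an unadjusted p under 0.05 the counts between the groups ran from 0 to 3. The alternative with the normalized value table was not run, as its columns could not be tied to the arrays. The median range of the members was 2.10 under quantile normalization without background correction, which leaves the background in the values. There the median log2 difference was 0.24 for all members, 0.17 for the B genes and 0.44 for the T genes. The B median was 0.15 with median scaling and 0.11 over the members detected on all 12 arrays, where the T median was 1.65 and rests on Ccl5 alone. The median log2 difference of the members was -0.36 within title letter A and 1.30 within letter B (B genes -0.58 and 1.28, T genes -0.27 and 1.94), and 0.18 with array weights (B genes -0.18, T genes 0.61). The correlations of Cd79a with Ins2 and Cela3b turned to -0.454 and -0.385 with median scaling. Over the arrays left out 1 at a time the median log2 difference ran from 0.07 to 0.71 for all members, -0.18 to 0.67 for the B genes and 0.45 to 1.24 for the T genes.

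None of the differences of single genes was past the threshold, and the sign of many changed. The cause was not tested. Within letter A the difference was -0.31 for Blk, -0.95 for Fcrla, -0.95 for Faim3, -0.85 for Pou2af1, -0.39 for Cd8b1, -0.41 for Cd3d, -0.29 for Cd3g, -0.15 for Cd27, -0.58 for Cd6, -0.32 for Cd2, -0.52 for Ltb, -0.26 for Ccr7, -0.52 for Ikzf1 and -0.36 for Cd52. Within letter B it was 0.65 for Igh-6, 1.35 for Cd79b and 0.83 for H2-Ob. With array weights it was -0.18 for Blk, -0.21 for Fcrla, -0.27 for Faim3 and -0.10 for Pou2af1. Under quantile normalization without background correction it was 0.091 for Cd79b and 0.020 for H2-Ob. With offset 50 it was 0.014 for Cd79b and 0.040 for H2-Ob, and with the mean over kept probes 0.17 for Cd79b. Leaving out 1 array at a time, it ran from -0.11 to 0.70 for Blk, -0.10 to 0.39 for Ccr7, -0.0054 to 0.77 for Cd52, -0.53 to 0.47 for Cd79b, -0.18 to 0.71 for Faim3, -0.34 to 0.70 for Fcrla, -0.59 to 0.48 for H2-Ob, -0.13 to 0.69 for Ltb and -0.26 to 0.65 for Pou2af1. Ccl5, Il7r and Cd84 kept their direction in each alternative that gave a value.

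The mean intensity of many members lay near background on the low arrays, so their fold between arrays is a lower bound there.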
